A study of Mus musculus with 10 samples.

Results

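Lung mesenchyme of adult mice was sorted by FACS, and the cells compared were a Pdgfra fraction, which carried the EGFP label of Pdgfra alone, and a Negative fraction, which carried neither label. Both fractions came from mice of the genotype Axin2CreERT2:tdT:PdgfraEGFP, so the controls hold the same alleles as the Pdgfra cells. In this line EGFP marks cells that express Pdgfra, and CreERT2, a tamoxifen-inducible recombinase driven by Axin2, switches on the tdT reporter. RNA-seq gave 2 libraries of each fraction, numbered 1 and 2 for Pdgfra and 0 and 2 for Negative. The other 6 of the 10 libraries entered the fit as well. They were 2 of Axin2:Pdgfra cells (both labels) and 2 of Axin2 cells (tdT alone) from the same genotype, and 2 of Wnt2 cells from Wnt2CreERT2:R26REFYP mice, all adult. The question was which transcripts go with the Pdgfra label among cells without the Axin2 label. The comparison covered 14177 of the 14854 genes in the deposited tables, those with a log2 value of 6 or more in at least 2 of the 10 libraries. The age of the mice, the tamoxifen schedule, the antibodies and the number of animals behind each library are details the labels do not state. The p-values therefore measure the spread between these libraries, part of which may be technical.

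PDGFRA is the receptor tyrosine kinase for PDGF-A and related ligands. In the lung it marks fibroblasts of the alveolar walls and airways, which lay down interstitial collagen, elastin and proteoglycans and send growth factors to the epithelium beside them. PDGFRB, the related receptor, marks pericytes and other mural cells of the small vessels. The alveolar epithelium is made of thin alveolar type 1 cells, which cover most of the gas exchange surface, and of type 2 cells, which make surfactant. Epithelium and endothelium share a basement membrane of laminin, type IV collagen, nidogen and perlecan.

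The sorted label matched its transcript. Pdgfra was at 14.64 and 14.92 in the Pdgfra libraries and 12.002 and 13.34 in the Negative libraries (log2), and the 2 fractions did not overlap. The difference was 2.11 ± 0.36 log2 units (± SE; limma, Benjamini-Hochberg adjusted p = 0.00587 over all genes tested; 95% interval 1.33 to 2.88), or 4.31-fold. Negative cells were not without the transcript. Pdgfrb went the other way, at 12.59 and 12.53 in the Pdgfra libraries and 15.49 and 15.02 in the Negative libraries, a difference of -2.70 ± 0.31 (0.000546). Axin2 was at 10.39 and 11.06 in the Pdgfra libraries and 10.66 and 10.07 in the Negative libraries, and those ranges overlapped. Pdgfrb kept its call whichever library was left out. Pdgfra lost its call with either Pdgfra library left out (adjusted p = 0.057 and 0.082).

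The 4 libraries differed in more than their label. The share of genes listed at the lowest value of the library was 8.02% and 2.09% in the Pdgfra libraries and 10.2% and 18.4% in the Negative libraries. Spearman's rho across genes was 0.853 between the Pdgfra libraries, 0.769 between the Negative libraries and 0.703 to 0.778 between fractions, given as a description. Negative library 2 stood apart: it held Y-linked transcripts (Ddx3y at 10.74, against 1 to 1.79 in the others, where it was listed at the lowest value) and Xist at 8.57, against 17.32 to 17.72 in the other 3. All 4 libraries held transcripts of cells outside the mesenchyme. Sftpc, the surfactant protein of type 2 cells, was at 15.13 and 14.69 in the Pdgfra libraries and 14.55 and 15.43 in the Negative libraries, and Cdh5, the cadherin of endothelial junctions, was at 14.78 and 14.73 in the Pdgfra libraries and 14.08 and 15.53 in the Negative libraries. Ptprc, the common leukocyte antigen, was at 7.18 and 8.50 in the Pdgfra libraries and 7.30 and 8.17 in the Negative libraries. The immune list as a whole had lower medians in Pdgfra, at 4.75 and 6.59 against 7.30 and 9.40 in the Negative libraries. Of its 37 members 25 had differences below 0 and 12 above 0, and none was called. The members at the lowest value numbered 10 and 2 in Pdgfra libraries 1 and 2 and 6 and 3 in Negative libraries 0 and 2. Several cell type lists had lower medians in both Pdgfra libraries than in both Negative libraries. These were the lists of alveolar type 1, type 2, pan-epithelial, pericyte, smooth muscle, mesothelial, immune, erythroid, and Schwann cell and neuron genes. Pan-epithelial medians were 8.74 and 6.97 against 10.63 and 9.85. The airway and endothelial medians overlapped, and the alveolar and adventitial fibroblast lists had higher medians in both Pdgfra libraries. The type 1, pericyte and erythroid lists are given at the end with values. The part of these cell types in the differences of other genes was not tested.

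In the comparison of Pdgfra with Negative cells, 412 genes (2.91%) passed limma's test at a Benjamini-Hochberg adjusted p under 0.05. Of these, 288 (2.03% of the genes tested) were higher in Pdgfra and 124 (0.875%) were lower. At an unadjusted p under 0.05 (limma) there were 2497 genes. The median log2 difference of called genes was 2.83 for the higher and -3.14 for the lower set, beside 0.03 over all genes tested. The Pdgfra and Negative values did not overlap for any of the 412, but with 2 libraries on each side this was so for 44.7% of all genes. Each Pdgfra library shared the second index of its barcode with 1 Negative library. All 412 differences kept their sign within both index sets, but values that do not overlap leave no other outcome, so this is no check on the index. In bulk libraries fewer cells of a type and less RNA per cell cannot be told apart. The counts rest on few libraries: with Pdgfra library 1 or 2 left out, 86 and 82 genes were called, with Negative library 2 left out 329, with Negative library 0 left out 633, and with Wnt2 library 1 or 2 left out 262 and 267. With 1 of the 10 libraries left out at a time, the calls of 36 of the 197 called genes chosen for naming held in all 10 fits. With eBayes run without trend and robust 71 genes were called, 34 of them among the 412. In that fit 22 of the 197 genes kept their calls, so some calls that held whichever library was left out were lost. Only Lum, Lama3 and Abca8a held in all 19 alternative settings. The list counts below fell to 0 for type 1, pericyte, erythroid, fibrillar collagen, elastic fibre, metalloproteinase, alveolar fibroblast, complement and immediate early genes. They fell to 1 for lower basement membrane, higher matricellular and higher adventitial genes. Below, each difference is given ± SE with its adjusted p in brackets, followed by the libraries without which a call or a count did not hold.

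**Figure D1:**
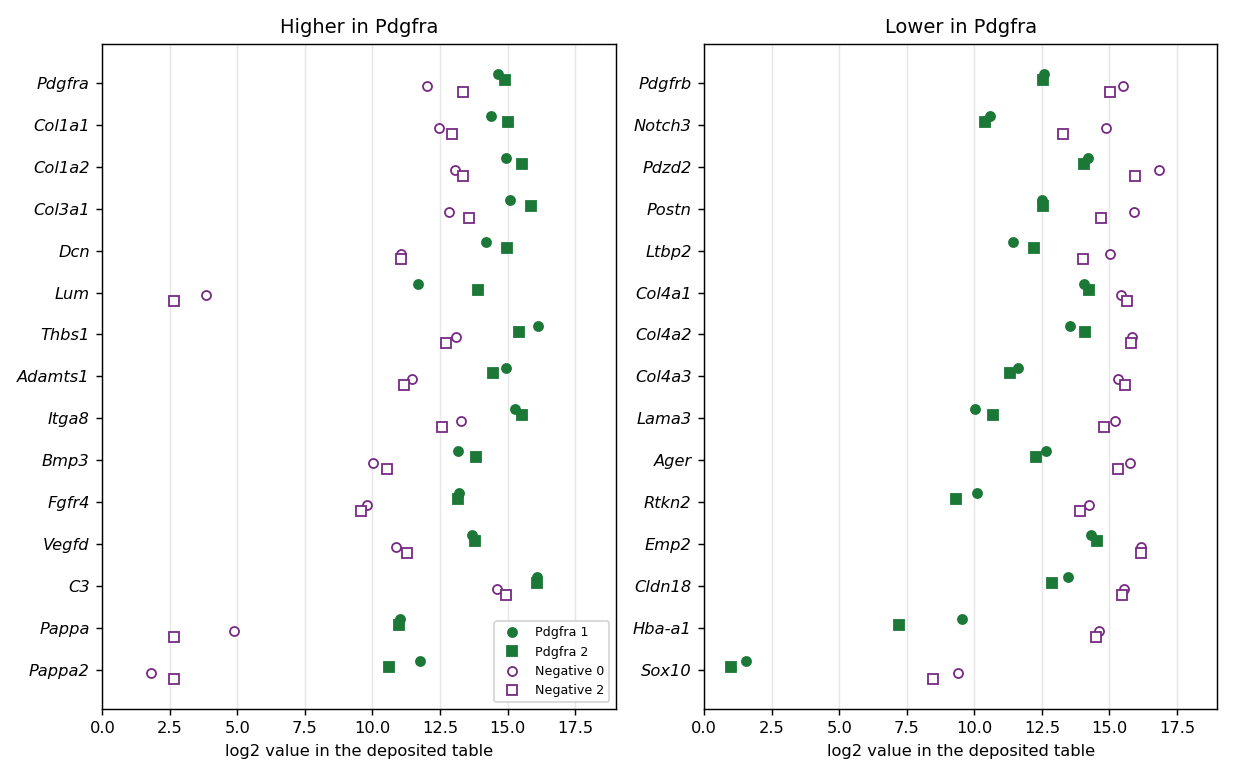
Log2 values of 30 named genes (horizontal axis) in the Pdgfra libraries 1 and 2 (filled green circles and squares) and the Negative libraries 0 and 2 (open purple circles and squares). Genes called higher in Pdgfra are on the left and genes called lower are on the right, and no gene has overlapping groups. Lum lies at 11.68 and 13.92 against 3.85 and 2.67, and Pdgfrb at 12.59 and 12.53 against 15.49 and 15.02.

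The fibrillar collagens, which form the tensile fibres of the interstitium, were higher in Pdgfra cells. All 10 measured members of the list had differences above 0, with a median of 1.72, and 4 were called. Col1a1 and Col1a2 encode the chains of type I collagen, Col3a1 type III and Col5a1 a chain of type V, which nucleates the fibres. The promoters of 3 of these called genes are shown because they were higher together; Col1a1, like Col14a1, had no entry in the promoter table. Each line gives the 250 bases before the RefSeq start (GRCm38.p6, 5′ to 3′ on the gene's strand, all plus), with CCAAT and TATAAA on either strand in capitals. The positions are chr6:4505368-4505617 for Col1a2, chr1:45311288-45311537 for Col3a1 and chr2:27886175-27886424 for Col5a1.
Col1a2: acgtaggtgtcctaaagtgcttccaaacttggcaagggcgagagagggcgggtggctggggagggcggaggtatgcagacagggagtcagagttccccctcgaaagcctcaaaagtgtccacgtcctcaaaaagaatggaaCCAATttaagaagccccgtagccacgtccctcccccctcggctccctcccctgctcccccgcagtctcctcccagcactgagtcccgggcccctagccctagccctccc
Col3a1: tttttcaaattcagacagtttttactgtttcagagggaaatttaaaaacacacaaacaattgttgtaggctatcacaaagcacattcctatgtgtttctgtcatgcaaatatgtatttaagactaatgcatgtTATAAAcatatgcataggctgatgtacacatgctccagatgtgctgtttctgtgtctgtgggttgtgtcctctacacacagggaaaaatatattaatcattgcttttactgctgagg
Col5a1: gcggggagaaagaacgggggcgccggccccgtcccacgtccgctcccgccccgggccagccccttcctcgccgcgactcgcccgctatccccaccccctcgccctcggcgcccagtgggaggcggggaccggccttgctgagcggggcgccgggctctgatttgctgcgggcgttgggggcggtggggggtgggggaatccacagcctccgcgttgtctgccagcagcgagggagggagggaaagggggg
Col1a2 held a CCAAT that begins at -109 and no TATAAA, Col3a1 held a TATAAA that begins at -117 and no CCAAT, and Col5a1 held neither in this window. Over all 27025 promoters of the table, 34.5% held CCAAT and 13.0% held TATAAA in the same 250 bases. Of the 10344 promoters of genes tested, 35.5% held CCAAT and 6.54% TATAAA. Among the 206 promoters matched to genes higher in Pdgfra the shares were 33.0% and 13.1%, and among the 91 matched to genes lower in Pdgfra 31.9% and 6.59%. No test was made of these shares.

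The 4 called fibrillar collagen genes were about 4 to 5 times as high as in Negative cells. Col1a1 was at 14.40 and 15.01 in the Pdgfra libraries and 12.47 and 12.95 in the Negative libraries, a difference of 1.99 ± 0.33 (0.00495). Col1a2 was at 14.95 and 15.53 in the Pdgfra libraries and 13.04 and 13.37 in the Negative libraries, a difference of 2.03 ± 0.27 (0.00137). Col3a1 differed by 2.27 ± 0.38 (0.00543) and Col5a1 by 2.07 ± 0.40 (0.0135). In each of the 4 the lower Pdgfra library was above the higher Negative library. Values did not overlap for any of the 412 called genes, nor for 44.7% of all genes tested, so this adds nothing to the calls. Of 18 other interstitial collagen genes 3 were called, all higher: Col14a1, a collagen that coats fibrils, at 12.67 and 13.45 against 9.76 and 9.63 (3.36 ± 0.56, adjusted p = 0.00536), Col6a3, a chain of the beaded filaments of type VI collagen, by 1.94 ± 0.31 (0.00391), and Col20a1 by 5.58 ± 1.14 (0.0172). Partner chains of 2 of these were not called: Col5a2 differed by 1.32 ± 0.45 (0.139) and Col6a1 by 0.94 ± 0.28 (0.0889). Col1a2 kept its call whichever library was left out. Col1a1, Col3a1, Col14a1 and Col6a3 lost their calls with Pdgfra library 2 left out (adjusted p = 0.08, 0.094, 0.089 and 0.074). Col5a1 lost its call with Negative library 2 or either Pdgfra library left out (adjusted p = 0.071 to 0.14). Col20a1 lost its call with either Pdgfra library left out (adjusted p = 0.17 and 0.094). The higher fibrillar collagen genes numbered 1 with Pdgfra library 2 left out, beside 4 in the fit with all libraries.

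The small leucine-rich proteoglycans, which bind collagen fibrils and set their width, gave the largest matrix difference. Lum (lumican) was at 11.68 and 13.92 in the Pdgfra libraries and 3.85 and 2.67 in the Negative libraries, where the lower Negative value is the lowest of that library, so no fold is given; the difference was 9.54 ± 1.19 (0.00101). Dcn (decorin) was at 14.21 and 14.97 in the Pdgfra libraries and 11.04 and 11.07 in the Negative libraries, a difference of 3.54 ± 0.54 (0.00342) or 11.6-fold, and Ogn (osteoglycin) differed by 1.39 ± 0.31 (0.0306). These 3 of 15 measured members were called higher and none was called lower. Bgn (biglycan), the close relative of decorin, was at 16.39 and 16.68 in the Pdgfra libraries and 16.68 and 16.28 in the Negative libraries, and its ranges overlapped. Lum kept its call whichever library was left out. Dcn lost its call with Pdgfra library 2 left out (adjusted p = 0.068). Ogn lost its call with Negative library 0, either Pdgfra library or either Wnt2 library left out (adjusted p = 0.053 to 0.21).

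Elastic fibre genes were called higher for 7 of 18 measured members and lower for 1, with a median difference of 1.002. Fbln1 (fibulin 1), which associates with elastic fibres and basement membranes, was at 13.19 and 13.46 in the Pdgfra libraries and 10.43 and 10.62 in the Negative libraries, a difference of 2.80 ± 0.36 (0.00107). Mfap5, a microfibril glycoprotein, differed by 2.09 ± 0.49 (0.0369), Emilin1 by 2.40 ± 0.54 (0.03) and Efemp1 (fibulin 3) by 1.72 ± 0.33 (0.0124). Fbn1, the main microfibril protein, was about 2 times as high, by 1.04 ± 0.25 (0.0409). The latent TGF-beta binding proteins split: Ltbp1 was higher by 1.71 ± 0.30 (0.00681) and Ltbp4 by 0.97 ± 0.23 (0.0403), whereas Ltbp2 was at 11.42 and 12.22 in the Pdgfra libraries and 15.02 and 14.03 in the Negative libraries, lower, with a difference of -2.70 ± 0.45 (0.00495). Eln itself was at 11.08 and 13.82 in the Pdgfra libraries and 9.75 and 9.32 in the Negative libraries and was not called (2.91 ± 0.89, adjusted p = 0.102); its Pdgfra libraries were further apart than any called gene of this list. Fbln1 kept its call whichever library was left out. Mfap5 lost its call with either Negative library, either Pdgfra library or Wnt2 library 1 left out (adjusted p = 0.054 to 0.2). Emilin1 lost its call with Negative library 0, either Pdgfra library or either Wnt2 library left out (adjusted p = 0.051 to 0.21). Efemp1 lost its call with Negative library 2 or either Pdgfra library left out (adjusted p = 0.058 to 0.13). Ltbp1 lost its call with Pdgfra library 2 left out (adjusted p = 0.094). Ltbp2 lost its call with Pdgfra library 1 left out (adjusted p = 0.087). Fbn1 kept its call only with either Wnt2 library left out (adjusted p = 0.057 to 0.22 elsewhere). Ltbp4 kept its call only with Negative library 2 or either Wnt2 library left out (adjusted p = 0.057 to 0.22 elsewhere). The higher elastic fibre genes numbered 1 with Pdgfra library 2 left out, 2 with Pdgfra library 1 left out, 3 with Negative library 0 left out and 4 with Negative library 2 left out, beside 7 in the fit with all libraries.

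Matricellular and adhesive matrix genes, whose products tell cells how to attach and respond, were called higher for 10 of 26 members and lower for 2 (median 1.47). Thbs1 (thrombospondin 1), which activates latent TGF-beta, was at 16.14 and 15.41 in the Pdgfra libraries and 13.09 and 12.73 in the Negative libraries, and its difference of 2.87 ± 0.28 (0.000295) had the smallest adjusted p of the list. Svep1 was higher by 2.05 ± 0.30 (0.00273), Tnc (tenascin C) by 2.50 ± 0.43 (0.00607) and Ccn5 by 2.95 ± 0.46 (0.00376). Vcan (versican), a large proteoglycan of provisional matrix, was at 12.53 and 12.23 in the Pdgfra libraries and 9.26 and 6.47 in the Negative libraries, a difference of 4.51 ± 0.77 (0.00574). Thbs2 was at 11.65 and 10.92 in the Pdgfra libraries and 4.32 and 2.67 in the Negative libraries, with Negative library 2 at its lowest value. Fn1 (fibronectin) differed by 1.04 ± 0.23 (0.03). The 2 lower members were Postn (periostin), at 12.52 and 12.56 in the Pdgfra libraries and 15.92 and 14.68 in the Negative libraries and lower, with a difference of -2.76 ± 0.40 (0.00273), and Sparc, lower, with a difference of -0.94 ± 0.21 (0.0303). Postn was also in the pericyte list given below. Thbs1, Svep1 and Postn kept their calls whichever library was left out. Tnc, Vcan and Thbs2 lost their calls with either Pdgfra library left out (adjusted p = 0.051 and 0.094 for Tnc, 0.091 and 0.068 for Vcan, 0.13 and 0.082 for Thbs2). Ccn5 lost its call with Pdgfra library 2 left out (adjusted p = 0.068). Fn1 lost its call with Axin2 library 2, Negative library 0 or either Pdgfra library left out (adjusted p = 0.051 to 0.21). Sparc lost its call with either Negative library or either Pdgfra library left out (adjusted p = 0.067 to 0.23). The higher matricellular genes numbered 2 with Pdgfra library 2 left out and 3 with Pdgfra library 1 left out, beside 10 in the fit with all libraries.

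Secreted proteases of the ADAMTS family, which cut proteoglycans and procollagens, made up most of the called metalloproteinase genes. Of 41 measured members 7 were higher and 1 lower, with a median of 1.65. Adamts1, a versican and aggrecan protease, was at 14.96 and 14.46 in the Pdgfra libraries and 11.47 and 11.17 in the Negative libraries, 10.5-fold higher, a difference of 3.39 ± 0.35 (0.000407). Adamts9 was higher by 2.66 ± 0.37 (0.002), Adamts15 by 3.40 ± 0.65 (0.0114) and Adamts5 by 3.78 ± 0.88 (0.035). Adamts10 and Adamtsl2, both tied to fibrillin microfibrils, were higher by 1.65 ± 0.39 (0.0389) and 2.86 ± 0.68 (0.0382). Mmp2 (gelatinase A) was higher by 1.72 ± 0.37 (0.0243). The lower member was Adamtsl3, with a difference of -3.62 ± 0.90 (0.0452). Of 26 genes for collagen processing and crosslinking, Lox (lysyl oxidase), which crosslinks collagen and elastin, was higher by 1.83 ± 0.43 (0.0357), and P3h2, a prolyl 3-hydroxylase known to act on type IV collagen, was lower, at 3.36 and 4.93 in the Pdgfra libraries and 10.63 and 10.60 in the Negative libraries (-6.47 ± 1.61, adjusted p = 0.0453). Adamts1 and Adamts9 kept their calls whichever library was left out. Adamts15 lost its call with either Pdgfra library left out (adjusted p = 0.13 and 0.094). Adamts5 lost its call with Negative library 2, either Pdgfra library or either Wnt2 library left out (adjusted p = 0.059 to 0.19). Mmp2 lost its call with Negative library 2 or Pdgfra library 2 left out (adjusted p = 0.1 and 0.2). Adamts10 and Adamtsl3 kept their calls only with either Axin2:Pdgfra library left out (adjusted p = 0.058 to 0.21 for Adamts10, 0.059 to 0.25 for Adamtsl3 elsewhere). Adamtsl2 kept its call only with either Axin2:Pdgfra library or Negative library 0 left out (adjusted p = 0.056 to 0.27 elsewhere). Lox kept its call only with either Axin2 library or either Axin2:Pdgfra library left out (adjusted p = 0.058 to 0.29 elsewhere). P3h2 kept its call only with either Wnt2 library left out (adjusted p = 0.051 to 0.24 elsewhere). The higher metalloproteinase genes numbered 2 with Pdgfra library 2 left out, 3 with Negative library 2 or Pdgfra library 1 left out and 4 with either Wnt2 library left out, beside 7 in the fit with all libraries.

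The basement membrane genes went in both directions by chain. Of 25 measured members 7 were lower and 3 higher in Pdgfra, with a median of -1.39. All 4 of the called collagen IV chains were lower. Col4a3, of the chain set that forms the alveolar and glomerular membranes, was at 11.62 and 11.32 in the Pdgfra libraries and 15.30 and 15.56 in the Negative libraries, a difference of -3.96 ± 0.51 (0.00107), and its partner Col4a4 differed by -3.92 ± 0.97 (0.0435). Col4a1 and Col4a2, the chains found in nearly all basement membranes, were lower, with differences of -1.39 ± 0.25 (0.00734) and -2.01 ± 0.25 (0.00102). Lama3, the laminin alpha 3 chain of epithelial membranes, was at 10.04 and 10.69 in the Pdgfra libraries and 15.22 and 14.80 in the Negative libraries, 25.1-fold lower (-4.65 ± 0.50, adjusted p = 0.000407). Hspg2 (perlecan) and Agrn (agrin) were lower, with differences of -1.94 ± 0.31 (0.00414) and -2.56 ± 0.48 (0.0101). On the other side, Lama4, the laminin alpha 4 chain of vascular and mesenchymal membranes, was higher by 1.55 ± 0.25 (0.00495), Col15a1 by 4.32 ± 1.03 (0.0387) and Frem1 by 2.68 ± 0.65 (0.0419). The chains that laminins of all these kinds share were not called: Lamb1 differed by 0.58 ± 0.33 (0.39) and Lamc1 by 0.39 ± 0.26 (0.466). Lamb3, which joins Lama3 in a laminin of epithelial anchorage, differed by -3.78 ± 1.21 (0.115) and was not called. Col4a3 and Col4a4 also stand in the alveolar type 1 list given below, whose members all had differences below 0. Col4a3, Col4a2 and Lama3 kept their calls whichever library was left out. Col4a1 and Agrn lost their calls with either Pdgfra library left out (adjusted p = 0.087 and 0.056 for Col4a1, 0.13 and 0.058 for Agrn). Hspg2 lost its call with Pdgfra library 1 left out (adjusted p = 0.076). Lama4 lost its call with Pdgfra library 2 left out (adjusted p = 0.064). Col15a1 lost its call with either Axin2:Pdgfra library, Negative library 2 or either Pdgfra library left out (adjusted p = 0.058 to 0.26). Col4a4 kept its call only with either Axin2 library or either Axin2:Pdgfra library left out (adjusted p = 0.067 to 0.23 elsewhere). Frem1 kept its call only with Negative library 2 or either Wnt2 library left out (adjusted p = 0.056 to 0.21 elsewhere). The lower basement membrane genes numbered 3 with Pdgfra library 1 left out and 4 with Pdgfra library 2 left out, beside 7 in the fit with all libraries.

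**Figure D2:**
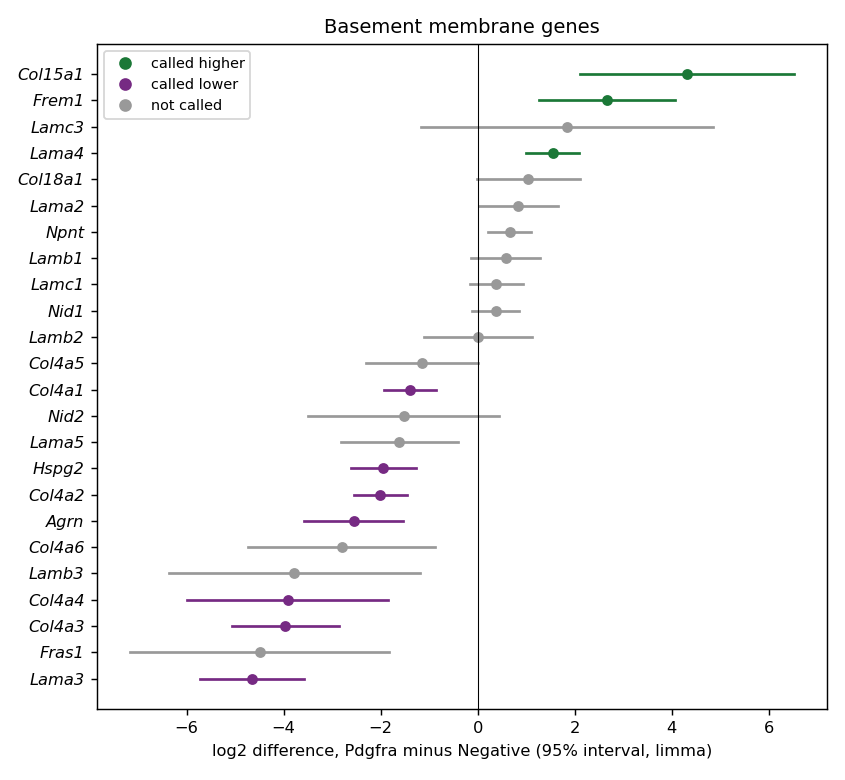
Log2 difference between Pdgfra and Negative cells (horizontal axis) for basement membrane genes, as points with limma's 95% interval, from Lama3 at -4.65 to Col15a1 at 4.32. Purple marks the 7 genes called lower, green the 3 called higher and grey the others, which include the shared chains Lamb1 (0.58) and Lamc1 (0.39) near 0.

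Markers of alveolar fibroblasts and lipofibroblasts were called higher for 9 of 30 genes and lower for none (median 1.53), and those of adventitial fibroblasts for 8 of 24 and none (median 1.44). In the alveolar list Itga8, the integrin partner of nephronectin, was at 15.27 and 15.54 in the Pdgfra libraries and 13.28 and 12.58 in the Negative libraries, a difference of 2.48 ± 0.26 (0.000407). Cdh11, a mesenchymal cadherin, was higher by 2.68 ± 0.34 (0.00104), Macf1, a large cytoskeletal linker, by 1.45 ± 0.18 (0.00101), and Scn7a by 1.36 ± 0.30 (0.0266). Tcf21, a transcription factor of lung mesenchyme and lipofibroblasts, was higher by 2.05 ± 0.48 (0.0352). Npnt (nephronectin), Inmt and Ces1d were not called, at differences of 0.66, 0.72 and 0.71. In the adventitial list the called genes included Serpinf1 by 4.85 ± 1.005 (0.0189), Gsn (gelsolin) by 1.26 ± 0.23 (0.00828), and Has1, a hyaluronan synthase, which was at 10.58 and 10.14 in the Pdgfra libraries and 4.11 and 2.67 in the Negative libraries. Pi16 and Dpt, other adventitial genes, were not called (2.81 and 0.49). No test set the fibroblast lists against each other. In the smooth muscle list of 23 genes 2 were called, both higher: Mylk, the kinase of myosin light chain, by 1.37 ± 0.21 (0.00376), and Hhip. The latter is a Hedgehog-binding protein and not a contractile one. The list as a whole leaned the other way, with 16 differences below 0, 7 above 0 and a median of -0.38. Acta2 was at 11.24 and 11.42 against 14.35 and 12.09 and Myh11 at 11.29 and 11.32 against 13.28 and 10.10, and neither was called. Itga8, Cdh11 and Macf1 kept their calls whichever library was left out. Scn7a and Serpinf1 lost their calls with Negative library 0 or either Pdgfra library left out (adjusted p = 0.094 to 0.21 for Scn7a, 0.054 to 0.19 for Serpinf1). Gsn and Has1 lost their calls with either Pdgfra library left out (adjusted p = 0.073 and 0.089 for Gsn, 0.11 and 0.077 for Has1). Mylk lost its call with Pdgfra library 2 left out (adjusted p = 0.058). Tcf21 kept its call only with either Axin2 library or either Axin2:Pdgfra library left out (adjusted p = 0.052 to 0.21 elsewhere). The higher adventitial genes numbered 1 with Pdgfra library 2 left out and 3 with Pdgfra library 1 left out, beside 8 in the fit with all libraries.

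Signals to neighbouring cells differed in a few named ligands and receptors. Bmp3, an atypical BMP that dampens activin and BMP signalling, was at 13.16 and 13.84 in the Pdgfra libraries and 10.01 and 10.55 in the Negative libraries, 9.32-fold higher (3.22 ± 0.41, adjusted p = 0.00101). It was 1 of 2 calls among 33 BMP genes. Fgfr4, a receptor for FGFs, was at 13.21 and 13.18 in the Pdgfra libraries and 9.81 and 9.59 in the Negative libraries, 11.3-fold higher (3.49 ± 0.47, adjusted p = 0.00137). It was the only call among 19 FGF genes. The ligands Fgf10 and Fgf7, known mesenchymal signals to lung epithelium, differed by 0.62 ± 0.62 (0.651) and 1.63 ± 0.70 (0.239). Vegfd, a ligand for lymphatic and vascular endothelium, was at 13.70 and 13.79 in the Pdgfra libraries and 10.87 and 11.28 in the Negative libraries (2.67 ± 0.35, adjusted p = 0.00107), the only call of 18 in its list. Osmr, the receptor for oncostatin M, was higher by 2.44 ± 0.35 (0.00205). Tgfbr3 (betaglycan) was higher by 1.98 ± 0.35 (0.00762). Bmp3, Fgfr4, Vegfd and Osmr kept their calls whichever library was left out. Tgfbr3 lost its call with Pdgfra library 1 left out (adjusted p = 0.13).

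Of 16 genes of the IGF axis 3 were higher, and they were an IGF binding protein and a pair of proteases that cut such proteins. Pappa (pappalysin 1), the protease that frees IGF from its binding proteins, was at 11.01 and 10.98 in the Pdgfra libraries and 4.86 and 2.67 in the Negative libraries, with Negative library 2 at its lowest value (7.23 ± 1.14, adjusted p = 0.00391). Pappa2, its relative, was at 11.75 and 10.60 in the Pdgfra libraries and 1.79 and 2.67 in the Negative libraries, and both Negative libraries were at their lowest value, so that no fold is given (adjusted p = 0.00886). Igfbp3, a binding protein for IGFs, was higher by 1.995 ± 0.31 (0.00376). Igf1 was at 12.29 and 13.62 in the Pdgfra libraries and 10.56 and 11.84 in the Negative libraries and was not called (1.76 ± 0.60, adjusted p = 0.14). Pappa and Pappa2 lost their calls with either Pdgfra library left out (adjusted p = 0.062 and 0.061 for Pappa, 0.13 and 0.07 for Pappa2). Igfbp3 lost its call with Pdgfra library 2 left out (adjusted p = 0.068).

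Axon guidance molecules, which also steer migrating and vascular cells in the lung, were called for 5 of 46 genes. Slit2, a ligand of ROBO receptors, was at 13.62 and 14.10 in the Pdgfra libraries and 11.63 and 10.45 in the Negative libraries (2.82 ± 0.44, adjusted p = 0.00376), and Robo2, 1 of its receptors, was higher by 3.36 ± 0.58 (0.00587). Unc5c, a netrin receptor, was higher by 3.18 ± 0.52 (0.00495). The 2 lower genes were Plxnb1, a receptor of semaphorin 4D, with a difference of -3.76 ± 0.65 (0.00626), and Sema3e, with a difference of -3.75 ± 0.80 (0.0227); Sema3e also stands in the alveolar type 1 list. In the Hedgehog list 3 of 13 genes were called, all higher, and 11 had differences above 0. Hhip was at 13.69 and 13.68 in the Pdgfra libraries and 8.61 and 10.09 in the Negative libraries (4.33 ± 0.73, adjusted p = 0.0055). Gli1 was higher by 7.01 (0.0308) and Boc by 2.90 (0.0327). With 1 library left out at a time these differences ran from 5.79 to 8.24 for Gli1 and from 1.68 to 4.12 for Boc, and neither call held in every such fit. The Gli1 call was also lost with values under 6 set to 6. Ptch1, the receptor and target gene, was at 13.01 and 14.09 in the Pdgfra libraries and 13.51 and 12.97 in the Negative libraries, with overlapping ranges. Slit2 and Robo2 lost their calls with Pdgfra library 2 left out (adjusted p = 0.068 and 0.094). Unc5c, Plxnb1 and Hhip lost their calls with either Pdgfra library left out (adjusted p = 0.051 and 0.072 for Unc5c, 0.057 and 0.079 for Plxnb1, 0.081 and 0.074 for Hhip). Sema3e lost its call with Negative library 0 or either Pdgfra library left out (adjusted p = 0.11 to 0.14).

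Complement genes were called higher for 5 of 18 members and lower for none (median 1.44). C3, the central component, was at 16.09 and 16.09 in the Pdgfra libraries and 14.62 and 14.95 in the Negative libraries, 2.48-fold higher (1.31 ± 0.22, adjusted p = 0.00554). C4b was higher by 1.69 ± 0.33 (0.0143), C7, a part of the membrane attack complex, by 1.66 ± 0.35 (0.0201), and Serping1, the C1 inhibitor, by 1.07 ± 0.21 (0.0131). Of 28 stromal chemokine and cytokine genes 3 were higher: Csf1, the growth factor of macrophages, by 2.93 ± 0.58 (0.0147), Cxcl1, a neutrophil chemokine, by 2.34 ± 0.50 (0.0228), and Ackr3, a scavenging receptor of CXCL12, by 2.51 ± 0.59 (0.0369). C3, C4b and Cxcl1 lost their calls with either Pdgfra library left out (adjusted p = 0.064 and 0.066 for C3, 0.15 and 0.064 for C4b, 0.087 and 0.17 for Cxcl1). C7 lost its call with Negative library 0 or Pdgfra library 2 left out (adjusted p = 0.08 and 0.2). Serping1 lost its call with Negative library 2 or Pdgfra library 2 left out (adjusted p = 0.051 and 0.13). Csf1 lost its call with Negative library 2 or either Pdgfra library left out (adjusted p = 0.056 to 0.15). Ackr3 kept its call only with either Axin2 library or either Axin2:Pdgfra library left out (adjusted p = 0.0504 to 0.22 elsewhere). The higher complement genes numbered 1 with Pdgfra library 2 left out and 3 with Pdgfra library 1 left out, beside 5 in the fit with all libraries.

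Several of the firmest calls lay outside the matrix and signalling lists. Abca8a, a lipid transporter of the ABC family, was at 14.67 and 14.58 in the Pdgfra libraries and 11.27 and 11.61 in the Negative libraries (3.19 ± 0.29, adjusted p = 0.000295), and with Lum and Lama3 it was 1 of 3 named genes whose calls held in all 19 alternative settings. Ptprd, a receptor tyrosine phosphatase, was at 15.03 and 15.26 in the Pdgfra libraries and 12.34 and 12.54 in the Negative libraries (2.70 ± 0.26, adjusted p = 0.000295). Nox4, an NADPH oxidase that makes hydrogen peroxide, was at 14.50 and 14.63 in the Pdgfra libraries and 12.20 and 11.95 in the Negative libraries (2.49 ± 0.27, adjusted p = 0.000407). Plpp3, a lipid phosphate phosphatase that degrades lysophosphatidic acid, was higher by 2.56 ± 0.29 (0.000546), and Adra1a, an alpha-1 adrenergic receptor, was at 12.11 and 13.66 in the Pdgfra libraries and 8.03 and 8.02 in the Negative libraries (4.86 ± 0.65, adjusted p = 0.00137). The largest difference of all, of Fam163b, set 13.00 and 12.35 in the Pdgfra libraries against Negative libraries that were both at their lowest value (adjusted p = 0.00536). Such genes numbered 22 of the 288 higher calls, and another 32 had 1 Negative library at its lowest value; of all genes tested, 682 had both Negative libraries at that value and 84 had both Pdgfra libraries there. Muc6, a gel-forming mucin, was at 12.28 and 12.89 in the Pdgfra libraries and 7.77 and 5.55 in the Negative libraries and Cygb (cytoglobin), an oxygen-binding globin of stromal cells, at 11.95 and 12.78 in the Pdgfra libraries and 9.07 and 5.55 in the Negative libraries, in both with Negative library 2 as the lowest of the 4. Abca8a, Ptprd, Nox4, Plpp3 and Adra1a kept their calls whichever library was left out. Fam163b lost its call with either Pdgfra library left out (adjusted p = 0.073 and 0.058). Muc6 and Cygb lost their calls with Negative library 2 or either Pdgfra library left out (adjusted p = 0.084 to 0.17 for Muc6, 0.077 to 0.16 for Cygb).

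Ion channels and transporters were called in both directions. Of 245 solute carrier genes 8 were higher and 7 lower (6.12%, beside 2.91% of all genes tested), and the median was 0.23. Slc1a3, a glutamate transporter, was at 11.66 and 12.60 in the Pdgfra libraries and 9.04 and 7.25 in the Negative libraries (3.98 ± 0.66, adjusted p = 0.00495), Slc5a3, the myo-inositol transporter, at 11.56 and 11.48 in the Pdgfra libraries and 7.11 and 7.47 in the Negative libraries (4.23 ± 0.69, adjusted p = 0.00461), and Slc44a2, a choline transporter-like protein, was lower, with a difference of -2.12 ± 0.32 (0.0034). Slc37a1 had the largest difference among lower genes, at 1.55 and 5.93 in the Pdgfra libraries and 12.42 and 13.14 in the Negative libraries, with Pdgfra library 1 at its lowest value. Of 35 calcium, sodium and TRP channel genes 4 were higher and 1 lower. Cacna1d, a pore of L-type calcium channels, was at 13.63 and 14.14 in the Pdgfra libraries and 10.90 and 11.08 in the Negative libraries, 7.44-fold higher (2.90 ± 0.39, adjusted p = 0.00141), and Scn3a, a voltage-gated sodium channel, was higher by 3.71 ± 0.63 (0.00574). The lower gene was Piezo1, the mechanosensitive cation channel, with a difference of -2.08 ± 0.50 (0.0387). Of 41 potassium channel genes 2 were higher, with Kcns3, a modifier of Kv2 channels, at 11.17 and 11.37 in the Pdgfra libraries and 7.21 and 6.18 in the Negative libraries (4.58 ± 0.79, adjusted p = 0.00589), and 3 lower, among them Kcnk3, a leak channel, with a difference of -3.12 ± 0.67 (0.0228). Among 49 cadherins Fat3 was higher by 2.60 ± 0.39 (0.00332) and Pcdh18 lower, with a difference of -3.34 ± 0.52 (0.00376). Slc44a2, Cacna1d and Fat3 kept their calls whichever library was left out. Slc1a3 lost its call with Pdgfra library 2 left out (adjusted p = 0.082). Slc5a3, Scn3a and Kcns3 lost their calls with either Pdgfra library left out (adjusted p = 0.064 and 0.061 for Slc5a3, 0.064 and 0.081 for Scn3a, 0.07 and 0.075 for Kcns3). Slc37a1 lost its call with Negative library 2 or Pdgfra library 1 left out (adjusted p = 0.094 and 0.17). Kcnk3 lost its call with Axin2 library 2, Negative library 0 or either Pdgfra library left out (adjusted p = 0.051 to 0.14). Pcdh18 lost its call with Pdgfra library 1 left out (adjusted p = 0.057). Piezo1 kept its call only with either Axin2:Pdgfra library or Negative library 2 left out (adjusted p = 0.058 to 0.25 elsewhere).

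Immediate early genes, which respond within minutes to growth factors and to tissue dissociation, were also higher in the Pdgfra cells. Of 34 members 8 were called higher and none lower, with a median of 1.16, and 29 differences were above 0. Nr4a3 was at 14.23 and 13.73 in the Pdgfra libraries and 10.42 and 10.23 in the Negative libraries, 12.6-fold higher (3.66 ± 0.47, adjusted p = 0.00105), and Nr4a1 was higher by 2.40 ± 0.29 (0.000863); both are orphan nuclear receptors. Nfkbiz, a regulator of NF-kappaB targets, was at 14.16 and 14.17 in the Pdgfra libraries and 10.81 and 11.20 in the Negative libraries (3.16 ± 0.36, adjusted p = 0.000546). Egr1 was higher by 1.41 ± 0.19 (0.00161), Fosb by 2.15 ± 0.33 (0.00342), Fos by 1.40 ± 0.25 (0.00759), Zfp36 by 1.43 ± 0.24 (0.00579) and Btg2 by 1.39 ± 0.27 (0.0127). The list's median level was 13.16 and 12.87 in the Pdgfra libraries and 11.14 and 12.001 in the Negative libraries. Thbs1, Adamts1, Il6 and Cxcl1, given above or in their own lists, are also known to respond quickly to such stimuli, and the part of the immediate early response in their differences was not tested. Il6 was at 9.89 and 9.92 in the Pdgfra libraries and 3.36 and 2.67 in the Negative libraries (6.89 ± 1.53, adjusted p = 0.0284), with Negative library 2 at its lowest value. The chaperone Dnajb4 was higher by 2.23 ± 0.32 (0.0024), 1 of 2 calls among 30 heat shock and unfolded protein response genes. Nr4a3, Nr4a1, Nfkbiz, Egr1 and Dnajb4 kept their calls whichever library was left out. Fosb lost its call with Pdgfra library 1 left out (adjusted p = 0.064). Fos and Btg2 lost their calls with either Pdgfra library left out (adjusted p = 0.091 and 0.068 for Fos, 0.13 and 0.077 for Btg2). Zfp36 lost its call with Pdgfra library 2 left out (adjusted p = 0.079). Il6 lost its call with Negative library 2, either Pdgfra library or either Wnt2 library left out (adjusted p = 0.057 to 0.16). The higher immediate early genes numbered 5 with either Pdgfra library left out, beside 8 in the fit with all libraries.

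**Figure D3:**
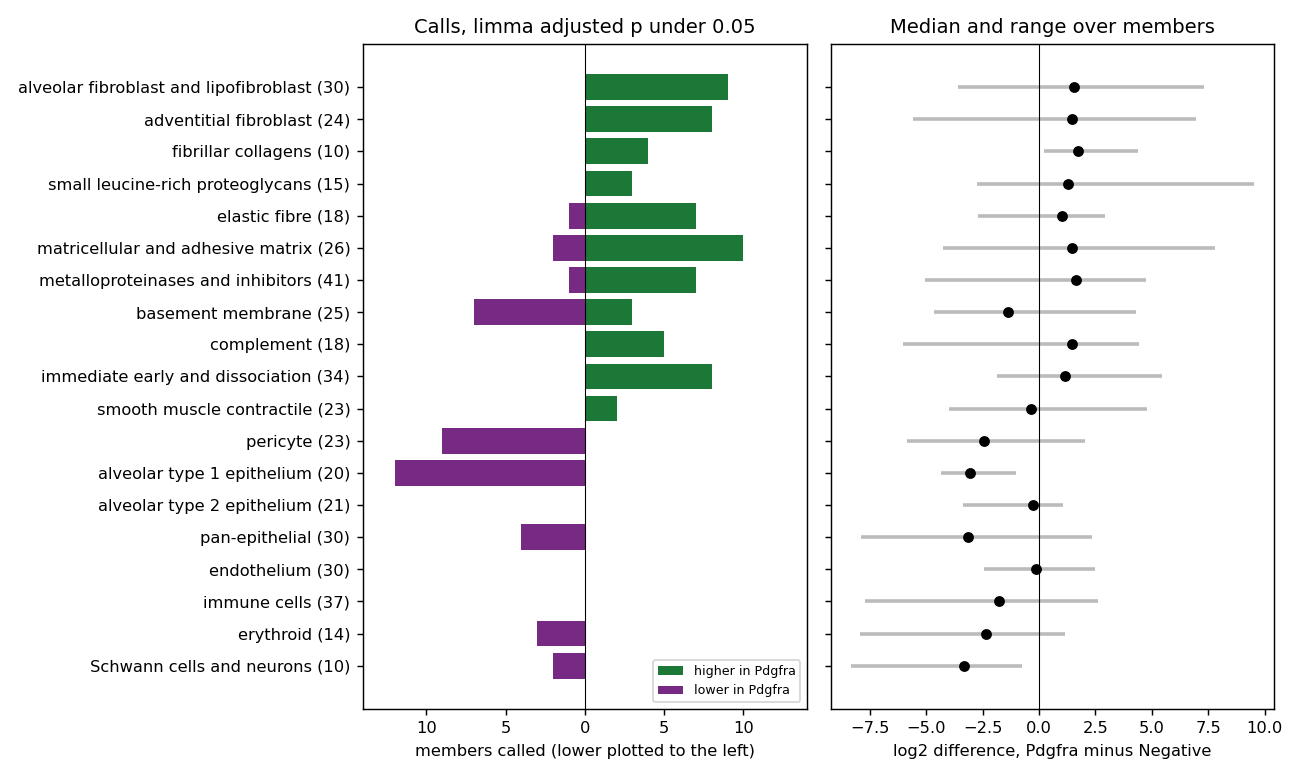
Left, the number of genes called higher (green, to the right) or lower (purple, to the left) in Pdgfra cells in each gene list, with the number of members measured in brackets. Right, the median (point) and full range (grey line) of the log2 difference over the members. The largest counts are 12 lower of 20 alveolar type 1 genes and 10 higher of 26 matricellular genes, and the endothelial, immune and type 2 lists have 0 calls.

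On the lower side, pericyte genes formed a large group, with 9 of 23 members lower and none higher in Pdgfra (median -2.45). Beside Pdgfrb, Notch3, the Notch receptor of mural cells, was at 10.57 and 10.38 in the Pdgfra libraries and 14.86 and 13.28 in the Negative libraries, 12.1-fold lower (-3.59 ± 0.55, adjusted p = 0.0036). Pdzd2, a PDZ domain protein, was at 14.20 and 14.07 in the Pdgfra libraries and 16.85 and 15.95 in the Negative libraries (-2.26 ± 0.30, adjusted p = 0.00126). Gucy1a1 and Gucy1b1, the subunits of the nitric oxide receptor guanylyl cyclase, were lower, with differences of -2.62 ± 0.39 (0.00332) and -2.45 ± 0.59 (0.0403), and Rgs4, a brake on G protein signals, with a difference of -3.96 ± 0.95 (0.0393). Of the classical pericyte genes, Cspg4 was at 11.78 and 10.03 against 13.83 and 12.19 and Rgs5 at 10.92 and 10.60 against 13.14 and 10.89, and neither was called. The list's median level was 10.92 and 10.60 in the Pdgfra libraries and 13.14 and 11.92 in the Negative libraries, below the 13.96 and 13.76 of the Axin2 libraries. No pericyte gene was listed at the lowest value in any of the 4 libraries. Pdgfrb and Pdzd2 kept their calls whichever library was left out. Notch3 lost its call with Pdgfra library 2 left out (adjusted p = 0.056). Gucy1a1 lost its call with Pdgfra library 1 left out (adjusted p = 0.062). Gucy1b1 kept its call only with either Axin2:Pdgfra library or Negative library 2 left out (adjusted p = 0.059 to 0.3 elsewhere). Rgs4 kept its call only with either Axin2:Pdgfra library left out (adjusted p = 0.059 to 0.2 elsewhere). The lower pericyte genes numbered 4 with Pdgfra library 2 left out and 5 with either Axin2 library, Negative library 0 or either Wnt2 library left out, beside 9 in the fit with all libraries.

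Alveolar type 1 epithelial genes had the largest share of calls of the lists in the plot of counts by list. All 20 members had differences below 0 in Pdgfra cells, with a median of -3.06, and 12 were called. Ager, the receptor for advanced glycation end products and a main marker of type 1 cells, was at 12.67 and 12.30 in the Pdgfra libraries and 15.77 and 15.32 in the Negative libraries, 8.34-fold lower (-3.06 ± 0.47, adjusted p = 0.00344). Rtkn2, a known marker of type 1 cells, was at 10.09 and 9.33 in the Pdgfra libraries and 14.24 and 13.90 in the Negative libraries (-4.36 ± 0.74, adjusted p = 0.00587). Emp2, a membrane protein of type 1 cells, was lower, with a difference of -1.75 ± 0.23 (0.00114), Spock2, a testican proteoglycan, with a difference of -2.46 ± 0.49 (0.0159), and Lmo7, with a difference of -3.46 ± 0.69 (0.0148). The water channel Aqp5 was at 10.53 and 7.58 against 13.47 and 12.01, and Pdpn (podoplanin) at 10.76 and 8.32 against 12.86 and 12.70. Neither was called. The Pdgfra and Negative values of both did not overlap, which was so for 44.7% of all genes tested. The list's median was 12.13 and 11.14 in the Pdgfra libraries and 15.25 and 14.65 in the Negative libraries. It was 9.68 to 12.33 in the other 6 libraries, so that the Negative libraries had the 2 highest medians of the 10. No type 1 gene was listed at the lowest value in any of the 4. The cells were labelled as lung mesenchyme, and these genes are not defining markers of it; the part of type 1 cells within the Negative libraries in this result was not tested. Emp2 kept its call whichever library was left out. Ager and Rtkn2 lost their calls with Pdgfra library 2 left out (adjusted p = 0.06 and 0.077). Spock2 lost its call with Negative library 0 or Pdgfra library 2 left out (adjusted p = 0.074 and 0.15). Lmo7 lost its call with Negative library 2 or Pdgfra library 2 left out (adjusted p = 0.067 and 0.17). The lower type 1 genes numbered 2 with Pdgfra library 2 left out, 5 with Negative library 0 left out and 7 with Negative library 2 or Pdgfra library 1 left out, beside 12 in the fit with all libraries. With eBayes run without trend and robust they numbered 0.

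Type 2 epithelium gave no calls. Of 21 type 2 genes none was called (limma; 1 at an unadjusted p under 0.05), and the median was -0.26. Its median level was 11.95 and 11.63 in the Pdgfra and 12.12 and 12.11 in the Negative libraries. Lamp3, a lysosomal protein of type 2 cells, was at 11.99 and 10.95 in the Pdgfra libraries and 9.51 and 11.32 in the Negative libraries, and the ranges overlapped. Genes of epithelium in general were lower for 4 of 30 members and higher for none: Cldn18, a tight junction claudin, with a difference of -2.34 ± 0.43 (0.0091), Krt19, a keratin of simple epithelium, with a difference of -3.99 ± 0.86 (0.0233), Myh14, with a difference of -4.32 ± 0.80 (0.00976), and Marveld3, which was at its lowest value in Pdgfra library 1. Cdh1 (E-cadherin) was at 11.68 and 11.07 against 14.82 and 13.66 and Nkx2-1, the lung epithelial transcription factor, at 9.73 and 8.50 against 12.42 and 12.57, and neither was called. Airway epithelium had 1 call of 15, Sec14l3, lower, with a difference of -2.85 ± 0.59 (0.0191). The lists of type 1 and type 2 genes were not tested against each other. Cldn18 lost its call with either Pdgfra library left out (adjusted p = 0.051 and 0.11). Krt19 lost its call with Negative library 0 or either Pdgfra library left out (adjusted p = 0.089 to 0.15). Myh14 lost its call with Negative library 2 or Pdgfra library 2 left out (adjusted p = 0.058 and 0.11). Sec14l3 lost its call with either Negative library or either Pdgfra library left out (adjusted p = 0.058 to 0.15). Marveld3 kept its call only with either Axin2:Pdgfra library left out (adjusted p = 0.058 to 0.26 elsewhere).

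Of 14 erythroid genes 3 were lower in Pdgfra: Hba-a1, an alpha globin, was at 9.54 and 7.21 in the Pdgfra libraries and 14.61 and 14.50 in the Negative libraries (-6.18 ± 1.29, adjusted p = 0.0191), and the beta globins Hbb-bs and Hbb-bt were lower, with differences of -5.16 ± 1.14 (0.0275) and -7.93 ± 1.86 (0.0357). Near-identical globin copies make the split between them uncertain. Of 10 genes of Schwann cells and neurons all had differences below 0 and 2 were called: Sox10, the glial transcription factor, was at 1.55 and 1 in the Pdgfra libraries and 9.38 and 8.45 in the Negative libraries, and Kcna1, a potassium channel of axons, at 1.55 and 1.55 in the Pdgfra libraries and 10.63 and 9.18 in the Negative libraries, with Pdgfra values at or near the lowest of each library. Endothelium had 0 calls of 30 (limma; 2 at an unadjusted p under 0.05; median -0.13), and immune cells 0 of 37 (9; median -1.77). Mesothelium had 1 of 11, Krt19, which the epithelial list also holds. Endothelial medians were 11.58 and 11.74 in the Pdgfra and 11.18 and 12.71 in the Negative libraries, so Negative library 2 held the most. Hba-a1 and Hbb-bs lost their calls with either Negative library or either Pdgfra library left out (adjusted p = 0.064 to 0.17 for Hba-a1, 0.088 to 0.17 for Hbb-bs). Hbb-bt lost its call with Axin2 library 1, either Negative library or either Pdgfra library left out (adjusted p = 0.0501 to 0.19). Kcna1 lost its call with Negative library 0 or either Pdgfra library left out (adjusted p = 0.072 to 0.11). Sox10 kept its call only with either Axin2:Pdgfra library left out (adjusted p = 0.052 to 0.14 elsewhere). The lower erythroid genes numbered 0 with either Negative library or either Pdgfra library left out, beside 3 in the fit with all libraries.

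**Figure D4:**
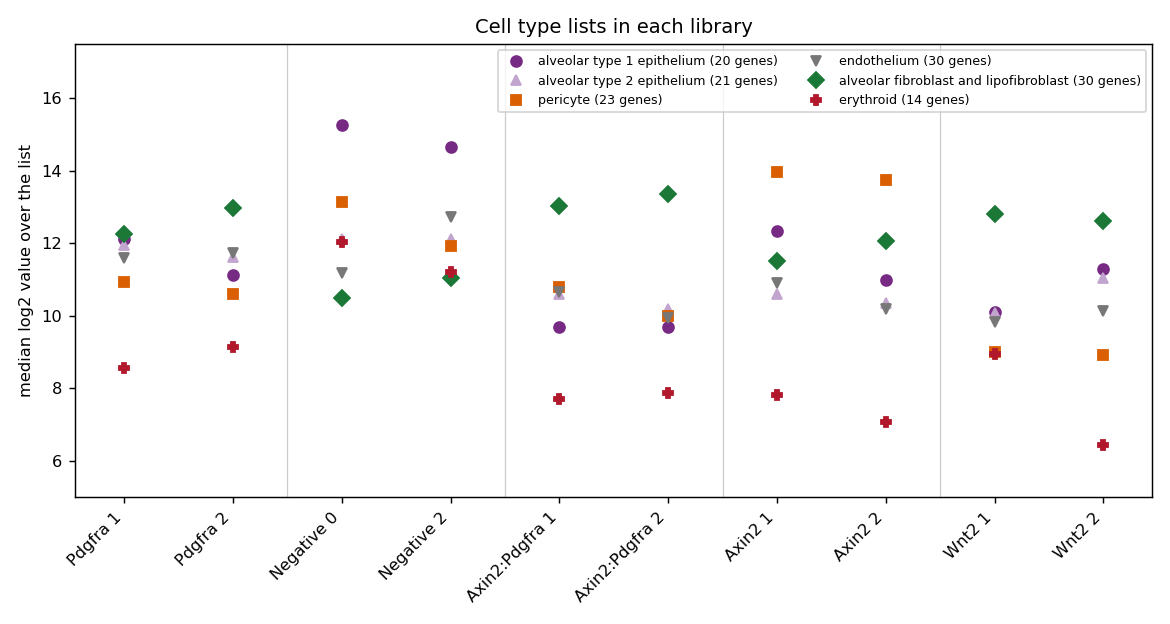
Median log2 value (vertical axis) of 6 cell type lists in each of the 10 libraries, 1 symbol per list, with the number of genes in brackets. The alveolar type 1 list is at 15.25 and 14.65 in the Negative libraries and at 12.33 or below in the other 8, the pericyte list is highest in the Axin2 libraries, and the type 2 list is at 11.63 to 12.12 in the Pdgfra and Negative libraries.

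Calls in several pathways known in this tissue are given here, beside 2.91% called over all genes tested. At an unadjusted p under 0.05 (limma) the count was 2497 of all 14177 genes tested. In short lists 0 calls lie near the share over all genes. Wnt receptors and targets had 0 calls of 24 and Wnt antagonists 0 of 14 (limma; 7 and 7 at an unadjusted p under 0.05). Of 14 Wnt ligands and R-spondins 2 were lower, Wnt7a, a ligand known from alveolar epithelium, at 1.55 and 1.16 in the Pdgfra libraries and 10.12 and 9.16 in the Negative libraries, and Wnt10b at 1.55 and 1 in the Pdgfra libraries and 8.77 and 9.40 in the Negative libraries, with the Pdgfra libraries at or near their lowest value. Wnt2 was at 7.68 and 10.33 in the Pdgfra libraries and 8.89 and 9.95 in the Negative libraries and Wnt5a at 11.23 and 11.81 in the Pdgfra libraries and 10.56 and 10.54 in the Negative libraries. Retinoid metabolism had 0 calls of 17 (3 at an unadjusted p under 0.05), cell cycle genes 0 of 23 (4) and Hox genes 0 of 13 (2). Ribosomal protein genes had 0 calls of 83 (5), yet 73 of them were below 0, with a median of -0.51, and 68 of 79 respiratory chain genes were too (median -0.62, 1 call, Ndufs8). Of 43 mesenchymal transcription factors 3 were called, among them Tcf21 and Tead1, a partner of YAP, which was lower, with a difference of -1.38 ± 0.31 (0.028). Tead1 lost its call with Negative library 2, either Pdgfra library or either Wnt2 library left out (adjusted p = 0.057 to 0.14). Wnt7a, Wnt10b and Ndufs8 kept their calls only with either Axin2:Pdgfra library left out (adjusted p = 0.058 to 0.17 for Wnt7a, 0.069 to 0.19 for Wnt10b, 0.059 to 0.19 for Ndufs8 elsewhere).

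The same label could be followed among cells that carried Axin2, in libraries that the comparison above did not hold. In Axin2:Pdgfra against Axin2 cells 326 genes (2.3%) were called. There were 113 genes called in both comparisons, all in the same direction, which is 27.4% of the 412 and 34.7% of the 326. Of the 412 genes 374 had the same sign in the second comparison, 265 of 288 higher and 109 of 124 lower genes. The share with the same sign over all genes tested was not counted. Pearson's r between the 2 differences over all genes tested was 0.288, given as a description. Both comparisons share the fit's estimate of the spread. Lum differed by 9.54 without the Axin2 label and by 7.62 with it, Abca8a by 3.19 and 1.97, and Notch3 by -3.59 and -5.61. The pericyte list had 9 lower calls in the first and 16 in the second comparison, with medians of -2.45 and -5.08. The type 1 list had 12 and 3 lower calls, with medians of -3.06 and -1.42, and the fibrillar collagens 4 and 0 calls, with medians of 1.72 and 1.05. These pairs of counts are not a test of a difference. The interaction, which tests it gene by gene, called 0 genes (0%; limma; 1296 at an unadjusted p under 0.05). Lama3 was among several genes, Mylk and Postn included, that shared the smallest adjusted p of the interaction, 0.237. It differed by -4.65 without and by -0.68 with the Axin2 label. For Pappa the differences were 7.23 and -0.36 (interaction adjusted p = 0.258) and for Hba-a1 -6.18 and 1.40 (0.307).

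**Figure D5:**
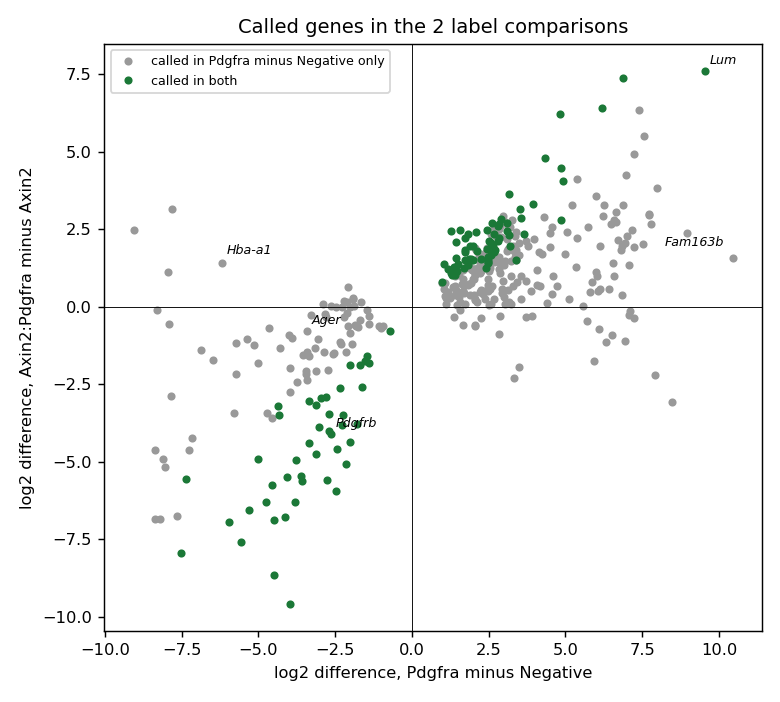
Each point is 1 of the 412 genes called between Pdgfra and Negative cells, with its log2 difference there (horizontal axis) and its log2 difference between Axin2:Pdgfra and Axin2 cells (vertical axis). The 113 genes called in both (green) all lie in the quadrants of equal sign, as do 374 of the 412, and Lum is at 9.54 and 7.62.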

How the data were processed

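RNA-seq values of sorted lung mesenchyme cells were read from 10 deposited tables, 1 per library. Each holds a single log2 value for each of 14854 Ensembl genes; the authors named STAR, limma and the build mm9 in their processing notes, without versions, and the log2 scale was inferred from the values, whose distributions are near-identical between libraries. The tables hold no counts, which leaves the depth unknown and allows no counting interval. Within each library the genes with the least signal share 1 lowest value, which differs between libraries, and no fold is given for a gene at it.

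Symbols were matched to 14720 identifiers. The filter asked for a log2 value of 6 or more in 2 or more of the 10 libraries. All 10 libraries entered a linear model with 1 mean per group (5 residual degrees of freedom), fitted with limma 3.58.1 in R 4.3.3 (lmFit, then eBayes with trend and robust). Tests were two-sided with Benjamini-Hochberg adjustment over the 14177 genes and a threshold of 0.05. Values in brackets after a difference ± SE are these adjusted p-values. The code was tested on simulated data. The members and the 59 gene lists were chosen with earlier results of these data known, so counts over a list are descriptions and no list was tested. Genes named were Pdgfra, the sex-linked genes, the 15 largest rises and falls among genes above the lowest value in all 4 libraries, the 10 smallest p a direction, up to 10 a direction at the lowest value in a whole group, up to 8 called members of each list a direction, and uncalled members as values. Col5a2, Bgn and other uncalled genes were given beside called relatives. A few genes that the rule names are not reported here. Promoter windows come from RefSeq (GRCm38.p6), a different build from the deposited tables, and were joined by symbol only. There were 19 alternative settings.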

Additional observations from a re-analysis of the deposited data

How the results depend on the processing

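No paired analysis was possible because the Pdgfra libraries are numbered 1 and 2 and the Negative libraries 0 and 2, so the groups share only 1 number. All 412 differences kept their sign in each of the 19 settings. This is no measure of robustness, since the Pdgfra and Negative values of these genes did not overlap. With 1 library left out at a time the calls numbered 82 to 633, the higher genes 42 to 554 and the lower genes 23 to 150. With eBayes without trend and robust there were 71 calls, 43 higher and 28 lower. Array weights gave 199 (151 higher, 48 lower). A fit of only the 4 Pdgfra and Negative libraries gave 299, 149 higher and 150 lower, so that 49.8% were higher in place of the larger part, and 234 of them were among the 412. Without the Wnt2 group there were 276, 183 of them higher. The second index as a term (403), no filter (407), a filter at 8 (428), values under 6 set to 6 (452) and centring on library medians (414) moved the count by less than 1.5 times. The cause of these shifts was not tested. Of 197 called genes chosen for naming 3 kept their calls in all 19 settings. Log2 values without counts limit the text on low genes, whose differences depend on the lowest value of each library.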
